A study of Mus musculus with 20 samples.

Results

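The 7 genes described here write, copy and remove DNA methylation. They are Dnmt1, Uhrf1, Dnmt3a, Dnmt3b, Tet1, Tet2 and Tet3, taken by symbol, and they make up 7 of the 27998 genes listed for the single-cell RNA-seq (scRNA-seq) and 7 of the 24062 genes listed for the RNA-seq of cultured cells. The rule that picks them uses no measured value.

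In mammals, methyl groups sit mainly on cytosines that precede a guanine (CpG). Replication leaves the new strand unmethylated, and Uhrf1, which binds such half-methylated sites, recruits Dnmt1, the maintenance methyltransferase that copies the mark. Dnmt3a and Dnmt3b are de novo methyltransferases, which place methyl groups on sites that carried none. Tet1, Tet2 and Tet3 are dioxygenases that oxidise 5-methylcytosine, the first step of its active removal. In neural stem cells (NSCs) these enzymes are known for roles in self-renewal and in the choice between neuronal and glial fates.

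The study followed NSCs and their progeny in the dentate gyrus (DG), the part of the mouse hippocampus where neurons are born throughout life. Cells that carried EGFP under control of the Nestin promoter were sorted from Nestin-EGFP mice (C57BL/6) at postnatal day 5 (P5) and at 12 (12w) and 24 weeks of age (24w), and scRNA-seq and single-cell ATAC-seq (scATAC-seq) were run with 1 library per age and assay. The number of mice behind each library is not given in the sources used here. Separately, mouse NSCs in culture were infected with a lentivirus, selected with puromycin and collected 3 days after infection. The virus carried a short hairpin RNA against Setd8, the methyltransferase that places a single methyl group on lysine 20 of histone H4, or a scrambled hairpin. GEO labels this culture as hippocampus, whereas the methods describe a long-passaged line from embryonic cortex. The sort also held blood vessel cells, so it is not a pure sample of the neural lineage.

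After filtering, 12752 P5 cells, 5271 from 12w and 2794 from 24w were used, with medians of 4261, 2271 and 2178 unique molecular identifiers (UMIs, each 1 captured RNA molecule) per cell. Between 26 and 86 cell barcodes were shared by any pair of libraries. The classes were rebuilt from marker genes, and each is called "-like" for that reason. They were NSC-like, neural progenitor (NPC)-like, immature neuron (IMN1 and IMN2)-like, astrocyte or astrocyte precursor (AS)-like, oligodendrocyte precursor (OPC)-like and vascular cells. An NSC-like cluster was led by the stress-response genes Fos and Cyr61, an AS-like cluster by haemoglobin genes such as Hba-a1, and 1 of the 3 IMN2-like clusters by Meg3, Snhg11, Npy and Sst. No IMN2 marker was among the 10 leading genes of that last cluster, and it took no name when scored against all classes. Dnmt1, Uhrf1 and Dnmt3a, and Tet2 and Tet3 at 12w, are therefore also given for the main IMN2-like cluster, led by Calb2, Stmn2 and Neurod2. In the same scoring an NSC-like cluster of 124 cells, 123 of them from P5, took no name. Another NSC-like cluster, of 43 cells, scored as oligodendrocyte. With such scoring 1190 P5 cells were NSC-like. The adult libraries were small for neural cells: 1347 P5 cells were NSC-like, followed by 329 at the middle age and 83 at the last, and for the NPC-like class the numbers were 1244, 241 and 44. Age was also joined to sex, since the 12w library held no UMI of a Y-linked gene, the 24w library held 2 Xist UMIs and the P5 library held cells of both sexes. Age and sex cannot be told apart between the 12w and 24w libraries, while P5 cells of like sex were set against each adult library as an alternative. With 1 library per age no test was applied. Levels are therefore UMIs pooled over the cells of a class, in counts per 1000000 UMIs (CPM), with exact Poisson 95% intervals that cover counting error only.

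Dnmt1 and Uhrf1 are shown with the sequence around their start sites because the results below turn on this pair, and because the start sites of Dnmt1 differed in open chromatin. The windows run from 250 bases before the start to 50 bases from it, in RefSeq on build GRCm38.p6, and are written in the direction of the gene. Capitals mark TTTGGCGC and TTCCCGC, letter runs like those bound by E2F factors, which are known for switching on genes at the start of DNA replication.

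Dnmt1 start with an open peak, chr9:20952574-20952873, minus strand: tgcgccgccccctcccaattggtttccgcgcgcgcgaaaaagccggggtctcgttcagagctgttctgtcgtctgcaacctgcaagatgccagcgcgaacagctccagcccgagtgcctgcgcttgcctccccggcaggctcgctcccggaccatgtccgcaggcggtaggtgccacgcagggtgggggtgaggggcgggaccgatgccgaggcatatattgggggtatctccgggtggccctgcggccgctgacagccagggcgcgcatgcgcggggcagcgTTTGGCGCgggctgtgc

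Dnmt1 start without a peak, chr9:20959839-20960138, minus strand: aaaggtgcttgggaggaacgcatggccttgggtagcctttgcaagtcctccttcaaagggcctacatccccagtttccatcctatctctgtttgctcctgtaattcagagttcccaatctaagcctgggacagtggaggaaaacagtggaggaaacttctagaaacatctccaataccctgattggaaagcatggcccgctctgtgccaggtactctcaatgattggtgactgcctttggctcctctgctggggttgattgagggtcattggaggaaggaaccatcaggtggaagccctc

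Uhrf1 start with TTCCCGC, chr17:56303087-56303386, plus strand: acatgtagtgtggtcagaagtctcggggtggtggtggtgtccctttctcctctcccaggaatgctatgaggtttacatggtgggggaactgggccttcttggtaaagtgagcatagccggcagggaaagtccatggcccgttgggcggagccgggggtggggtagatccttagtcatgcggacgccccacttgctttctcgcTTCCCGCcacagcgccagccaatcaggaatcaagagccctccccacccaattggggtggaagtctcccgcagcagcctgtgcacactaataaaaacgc

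The first Dnmt1 window held 33 CpG sites, more than 91.4% of the 32851 promoters in the table, and the second held 2. Another Dnmt1 start under the peak of the first, with the window chr9:20952930-20953229, is not printed. It held 12 CpG sites and neither letter run. The Uhrf1 window held 12 CpG sites. A second Uhrf1 start under the same peak, with the window chr17:56304063-56304362, is not printed and held 33 CpG sites and neither letter run. TTTGGCGC began at base +34 of the first Dnmt1 window, counting the start base as +1, and TTCCCGC began 48 bases before the Uhrf1 start. Both strands were searched, and no match overlapped another. The longer run TTTCCCGC, held by 1.07% of all promoters, contains TTCCCGC and was counted with it. In the Uhrf1 window a c comes before TTCCCGC, so that window does not hold the longer run. TTCCCGC is also shorter than TTTGGCGC, and the 2 runs are not equally rare. Among all promoters of this length, 4.6% held TTCCCGC, 0.514% held TTTGGCGC and 5.06% held either. The other 10 windows of the 7 genes held neither. The richest in CpG was that of Tet2, with 57 sites.

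Among classes of at least 30 cells, Dnmt1 and Uhrf1 were highest in NPC-like cells, the dividing progenitors. At P5 Uhrf1 stood at 77.1 CPM (71.6 to 82.9, 736 UMIs) in NPC-like cells, 9.26 CPM (6.94 to 12.1) in NSC-like cells, 7.21 CPM (5.82 to 8.83) in AS-like cells, 7.10 CPM (4.79 to 10.1) in IMN2-like cells and 6.23 CPM (3.4 to 10.4) in IMN1-like cells. The intervals of these last 4 classes overlapped, and that of NPC-like cells lay far above them. Outside the neurogenic lineage Uhrf1 ran from 25.5 CPM in pericyte-like cells, 19.2 CPM in OPC-like cells, 17.4 CPM in ependymal-like cells and 14.2 CPM in smooth muscle-like cells to 3.02 CPM (0.623 to 8.83, 3 UMIs) in oligodendrocyte-like cells. Dnmt1 at P5 was 54.8 CPM (50.2 to 59.7, 523 UMIs) in NPC-like cells. It was 34.5 CPM (30.6 to 38.8) in OPC-like cells, 32.6 CPM in pericyte-like cells and 28.6 CPM (23.8 to 34.2) in IMN2-like cells. The lowest levels of Dnmt1 were 13.5 CPM (10.6 to 16.8) in NSC-like cells and 13.3 CPM (11.3 to 15.4) in AS-like cells. A smaller group of 22 interneuron-like cells had a higher point value of Dnmt1, 85.7 CPM on 9 UMIs, and its interval reached below that of NPC-like cells.

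NPC-like cells thus held 8.32 times the Uhrf1 of NSC-like cells (interval 6.30 to 11.2) and 4.07 times the Dnmt1 (3.20 to 5.24) at P5. These were 2 of the 7 genes past 2-fold in that direction, a size that 10.1% of all genes compared reached. At 12w the ratios were 44.2 (14.9 to 216) for Uhrf1 and 6.55 (3.69 to 12.7) for Dnmt1, with 18.4% of all genes past 2-fold. The 12w ratio of Uhrf1 rests on 3 UMIs in NSC-like cells. Several of the markers that name NPC-like cells are themselves cell cycle genes, among them Top2a, Mki67 and Cdk1, so a difference between this class and the others is also a difference in cycling. Against IMN1-like cells at P5, NPC-like cells held 12.4 times the Uhrf1, 2.51 times the Dnmt1 and 2.37 times the Dnmt3a, 3 of 7 members where 15.4% of all genes were past 2-fold. IMN2-like cells held 2.13 times the Dnmt1 of NSC-like cells (1.59 to 2.87), where 12.2% of all genes were past 2-fold higher. IMN1-like cells, at 21.8 CPM of Dnmt1, lay between them and overlapped IMN2-like cells. In the main IMN2-like cluster Dnmt1 was 27.3 CPM (21.7 to 33.9), above the interval of NSC-like cells, whereas Uhrf1 in IMN2-like cells was within the interval of NSC-like cells.

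**Figure D1:**
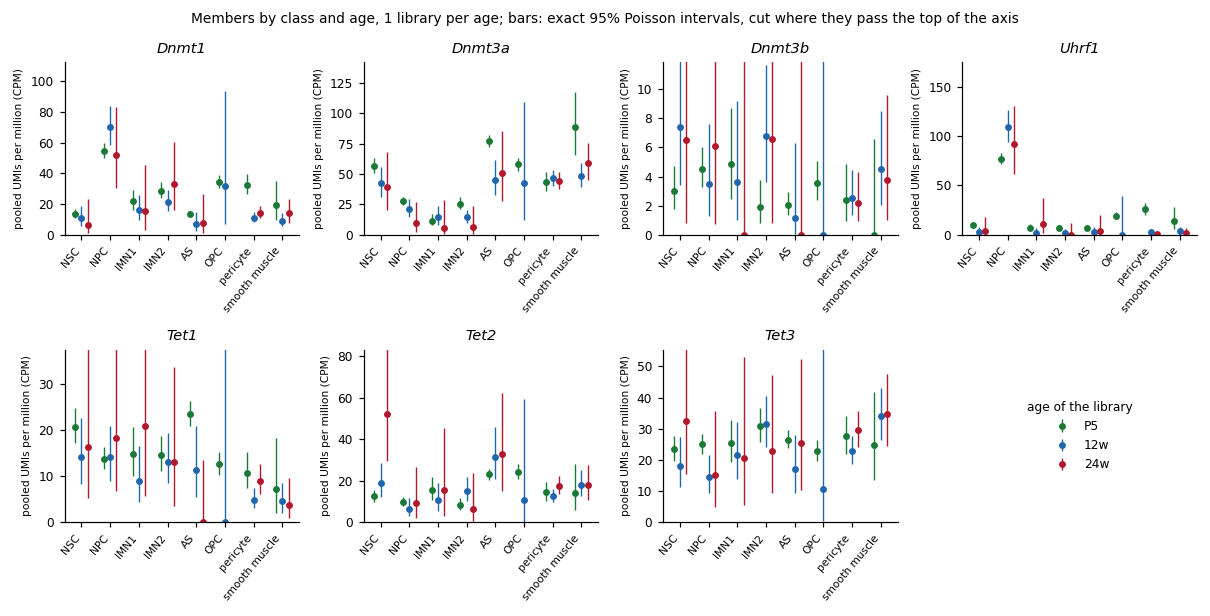
Level of each of the 7 genes (CPM, y axis) by cell class (x axis) at P5, 12w and 24w, for pools of at least 30 cells, with exact Poisson 95% intervals as bars. Uhrf1 and Dnmt1 stood highest in NPC-like cells at the 3 ages, at 77.1, 109.5 and 91.5 CPM for Uhrf1, while Dnmt3a was higher in NSC-like and AS-like than in IMN1-like cells.

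Dnmt3a, the more strongly detected de novo methyltransferase, had a different order along the lineage. Its P5 level was 77.0 CPM (72.3 to 81.9, 993 UMIs) in AS-like cells and 56.6 CPM (50.6 to 63.1, 324 UMIs) in NSC-like cells. It was 27.4 CPM (24.2 to 31.0) in NPC-like cells, 11.6 CPM (7.55 to 16.9, 26 UMIs) in IMN1-like cells and 25.3 CPM (20.8 to 30.6) in IMN2-like cells. Along these classes the level went down from AS-like to IMN1-like cells. NPC-like cells held 0.485 times the Dnmt3a of NSC-like cells (0.410 to 0.572), where 14.2% of all genes were past 2-fold lower. IMN1-like cells held 0.204 times (0.131 to 0.305), where 21.5% of all genes were past 2-fold lower. For IMN2-like cells the value was 0.447 times that of NSC-like cells, where 18.8% of all genes were past 2-fold lower. IMN2-like cells exceeded IMN1-like cells 2.19-fold (1.42 to 3.51), where 7.55% of all genes were past 2-fold higher. That value rests on the cluster led by Meg3 and Npy, which held 45.2 CPM of Dnmt3a (33.2 to 60.1). The main IMN2-like cluster held 19.0 CPM (14.4 to 24.6), and its interval overlapped that of IMN1-like cells. At P5 no member was past 2-fold in either direction between AS-like and NSC-like cells, where 4.12% of all genes were higher and 4.34% lower. The highest P5 values of Dnmt3a were outside the lineage, 99.5 CPM (83.5 to 118) in ependymal-like cells and 88.8 CPM (65.9 to 117) in smooth muscle-like cells, and these overlapped each other.

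Dnmt3b was near the limit of detection. All pools together held 235 UMIs of it. With ages pooled its level in the neural classes and OPC-like cells ran from 1.92 CPM (1.27 to 2.79) in AS-like cells to 4.40 CPM (3.28 to 5.79, 51 UMIs) in NPC-like cells. These ends of the range did not overlap, and the classes between them did. At P5 alone the order differed, with IMN1-like cells highest at 4.89 CPM (2.44 to 8.75) and IMN2-like cells lowest at 1.89 CPM (0.818 to 3.73). IMN2-like cells then held 0.421 times the Dnmt3b of NPC-like cells (0.171 to 0.905), on 8 and 43 UMIs. The share of all genes past 2-fold lower is not given for this pair. At 12w the ratio was on the other side of 1, at 1.94 (0.688 to 6.23), so no lasting order was seen. AS-like cells held 0.497 times the Dnmt3b of NSC-like cells (0.282 to 0.874) with ages pooled. Within P5 alone the ratio was 0.679 (0.354 to 1.33) and not past 2-fold. The pooled value mixes ages in unlike shares, and the share of all genes past 2-fold was not computed for it.

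No Tet gene was past 2-fold at P5 between any pair of the NSC-like, NPC-like, IMN1-like and IMN2-like classes. Tet1 at P5 was 23.3 CPM (20.8 to 26.1) in AS-like and 20.6 CPM (17.1 to 24.7) in NSC-like cells, which overlapped, and 13.7 CPM (11.5 to 16.3) in NPC-like cells, which lay below both. IMN1-like and IMN2-like cells were at 14.7 and 14.4 CPM of Tet1. Tet2 at P5 was highest in OPC-like cells at 24.3 CPM (21.1 to 27.9) and AS-like cells at 23.1 CPM (20.6 to 25.9), against 12.4 CPM (9.69 to 15.6) in NSC-like and 9.74 CPM (7.86 to 11.9) in NPC-like cells. At 12w, NPC-like cells held 0.339 times the Tet2 of NSC-like cells, with 17.5% of all genes past 2-fold lower. IMN2-like cells at that age held 2.36 times the Tet2 of NPC-like cells (1.15 to 5.24) and 2.15 times the Tet3 (1.33 to 3.58), where 14.3% of all genes were past 2-fold higher. In the main IMN2-like cluster Tet2 was then 16.1 CPM (10.7 to 23.2) and Tet3 29.3 CPM (21.8 to 38.5). NPC-like cells had 6.44 CPM of Tet2 and 14.6 CPM of Tet3, so Tet3 in that cluster was at the edge of 2-fold. Tet3 at P5 ran from 22.7 CPM (19.6 to 26.2) in OPC-like cells to 34.2 CPM (23.7 to 47.9) in oligodendrocyte-like cells, and each class overlapped its neighbours in the order.

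To describe which genes follow the members most closely, log2(CPM + 10) was compared over 35 pools of class and age among 10400 genes. The pools share libraries, so these correlations are descriptions. Dnmt1 was most like Lrr1 (r = 0.873), Hdgf (0.832) and Rfc4 (0.824), the last of which is a subunit of the clamp loader of DNA replication. Uhrf1 was most like Lig1 (0.899), the replicative DNA ligase, Tpx2 (0.883), a spindle factor, and Rrm2 (0.883), a subunit of ribonucleotide reductase. Dnmt3a followed Rab31 (0.760), Ndufa13 (0.716) and Dag1 (0.702). Tet1 followed Prr3 (0.760), Hipk2 (0.738) and 3110021N24Rik (0.716), Tet2 followed Bmyc (0.692), Asl (0.647) and Gpc5 (0.644), and Tet3 followed Setd3 (0.758), Rnf14 (0.725) and Smim7 (0.680). Dnmt3b had too few UMIs for this. Among the members themselves, Dnmt1 and Uhrf1 were the most alike pair (0.706) and Dnmt1 and Tet2 the least (-0.541).

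Cycling cells were compared with non-cycling cells of the same class, to separate the cell cycle from cell class. Each cell was thinned to 1000 UMIs, and a cell with 3 or more UMIs of 28 S phase and 28 G2/M genes was taken as cycling and a cell with none as non-cycling. None of the 7 genes is in these lists. By this measure, in order of age, 88.2%, 83.0% and 79.5% of NPC-like cells were cycling, against 7.8%, 2.43% and 3.61% of NSC-like cells. Because NPC-like cells are defined in part by cycling, the classes that are not so defined are given first.

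Cycling OPC-like cells held more Dnmt1 and Uhrf1 than non-cycling ones. Dnmt1 stood at 53.1 CPM in 690 cycling cells and 21.7 CPM in 711 non-cycling cells, a ratio of 2.45 (1.77 to 3.42). Uhrf1 stood at 37.1 and 10.8 CPM, a ratio of 3.42 (2.21 to 5.47). These 2 of the 6 members compared were past 2-fold, as were 4.13% of all genes, and 0 members were lower, against 1.24%. The other writers and erasers did not move in this way. Dnmt3a was 54.7 CPM in cycling and 60.2 CPM in non-cycling OPC-like cells, a ratio of 0.907 (0.714 to 1.15). Tet1 was 11.6 and 16.9 CPM (ratio 0.686, 0.412 to 1.13), Tet2 22.7 and 23.3 CPM, and Tet3 19.9 and 23.3 CPM. The median depth was 2862.5 UMIs in cycling and 3106 in non-cycling OPC-like cells.

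Pericyte-like cells, which are vascular and not neural, gave the same order for the maintenance pair. Dnmt1 was 50.9 CPM in 233 cycling cells and 12.0 CPM in 2665 non-cycling cells (ratio 4.25, 2.98 to 6.05), and Uhrf1 was 41.4 and 2.57 CPM (ratio 16.1, 8.93 to 30.8), with 6.18% of all genes past 2-fold higher. Most cycling pericyte-like cells came from P5. Within P5 alone the ratios were 4.93 (2.51 to 10.8) for Dnmt1, from 56.6 against 11.5 CPM, and 3.76 (1.94 to 7.98) for Uhrf1, from 47.4 against 12.6 CPM. The larger Uhrf1 ratio over all ages thus shrank within 1 library. At 12w Dnmt1 was 11.1 CPM on 1 UMI in 49 cycling cells and 11.2 CPM in non-cycling cells (0.99, 0.0243 to 5.95), Uhrf1 had 0 and 3 UMIs, and 44 of those 49 cells held just the 3 list UMIs that count as cycling, so a difference was not detectable there. Tet2 was lower in cycling pericyte-like cells, at 7.16 against 15.8 CPM (0.454, 0.201 to 0.901), where 13.8% of all genes were past 2-fold lower, and within P5 alone the ratio was 0.353 (0.133 to 0.854), on 8 and 18 UMIs, under the 20 that a call asks for. Median depth differed here, at 4596 UMIs in cycling and 1962 in non-cycling cells.

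In NPC-like cells only 32 cells were non-cycling. Against them, the 1332 cycling cells held 3.20 times the Dnmt1 (1.24 to 11.8), at 60.6 and 18.9 CPM. They held 4.54 times the Uhrf1 (1.77 to 16.7), at 86.0 and 18.9 CPM. Each non-cycling level rests on 4 UMIs. Within P5 alone the Dnmt1 ratio was 1.97 (0.764 to 7.25, on 4 non-cycling UMIs) and no longer past 2-fold. That of Uhrf1 was 5.41 (1.49 to 44.8, on 2 non-cycling UMIs). Tet2 also met the rule because the non-cycling cells held 0 UMIs of it, but 3 UMIs over that pool would be 14.2 CPM, above the 9.31 CPM of cycling cells, so no difference in Tet2 was detectable at this depth. Of all genes 11.8% were past 2-fold higher in this comparison and 0.639% lower, and no member was lower. No member met the rule in NSC-like cells (0.232% of all genes higher, 5.07% lower) or AS-like cells (0.143% and 4.54%). Uhrf1 in NSC-like cells was 22.6 CPM in 116 cycling cells and 4.96 CPM in 778 non-cycling cells, a ratio of 4.57 (1.85 to 10.7), but on 10 UMIs, under the 20 that the rule asks for. In AS-like cells Uhrf1 was 13.0 and 6.32 CPM (2.06, 0.783 to 4.61). IMN1-like cells had Dnmt3a and Tet1 lower in the 53 cycling cells, each on 1 UMI and with an interval that took in equal levels, where 4.15% of all genes were past 2-fold lower and 0.199% higher.

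**Figure D2:**
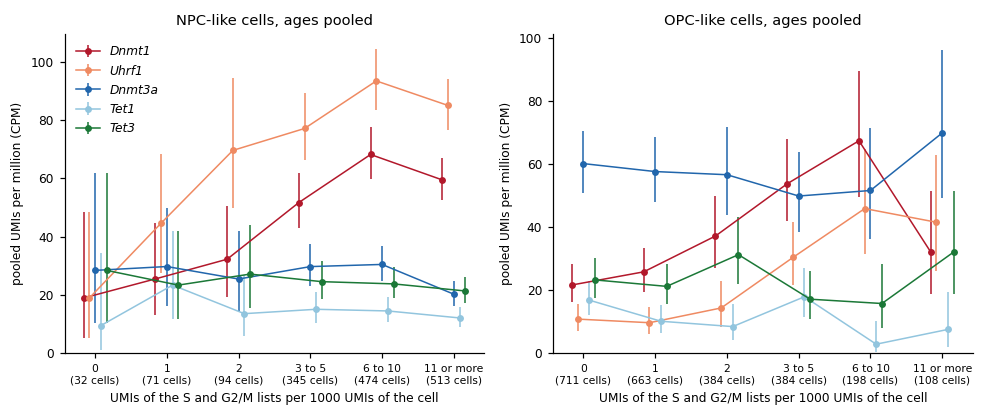
Level (CPM, y axis) of Dnmt1, Uhrf1, Dnmt3a, Tet1 and Tet3 against the number of cell cycle list UMIs in cells thinned to 1000 UMIs (x axis), in NPC-like and OPC-like cells with all ages pooled and exact Poisson 95% intervals as bars. Uhrf1 in OPC-like cells was 10.8 CPM at 0 list UMIs and 46.0 CPM at 6 to 10, while Dnmt3a was 60.2 and 51.7 CPM in the same bins.

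Graded by the number of list UMIs, Uhrf1 in OPC-like cells was 10.8, 9.70, 14.4, 30.4, 46.0 and 41.6 CPM in cells with 0, 1, 2, 3 to 5, 6 to 10 and 11 or more. Dnmt1 in the same cells was 21.7, 25.9, 37.2, 53.8, 67.5 and 32.2 CPM, so its top bin, with 108 cells, lay below the 2 bins before it. In NPC-like cells Uhrf1 went from 18.9 CPM at 0 list UMIs to 93.4 CPM at 6 to 10 and 85.0 CPM at 11 or more. Dnmt1 went from 18.9 to 68.2 and 59.4 CPM in the same bins. The levels of both genes at 0 list UMIs rest on 4 UMIs each. NSC-like cells with 0, 1, 2 and 3 to 5 list UMIs had 4.96, 7.34, 12.2 and 23.5 CPM of Uhrf1.

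Within cycling cells the maintenance pair stood higher where S phase genes outweighed G2/M genes. In NPC-like cells Dnmt1 was 85.2 CPM in cells with more S UMIs and 44.3 CPM in cells with more G2/M UMIs (ratio 1.92, 1.63 to 2.27), and Uhrf1 was 133 and 59.1 CPM (2.24, 1.95 to 2.58). Tet3 went the other way, at 17.2 and 25.5 CPM (0.676, 0.495 to 0.912), and Dnmt3a had a ratio of 1.02 (0.780 to 1.33). Pericyte-like cells gave 2.35 (1.38 to 4.02) for Dnmt1 and 2.04 (1.10 to 3.77) for Uhrf1. In OPC-like cells Dnmt1 had a ratio of 1.64 (1.13 to 2.37), whereas that of Uhrf1 was 1.09 with an interval from 0.682 to 1.71.

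Between ages, a gene was called when both adult libraries differed from P5 by 2-fold or more with the same sign, and when the higher pool held 20 UMIs or more. In the 5 neural classes few members met it. Of the 6 or 7 members compared in NSC-like, NPC-like and AS-like cells and the 5 compared in IMN1-like cells, none did. The shares of all genes called higher and lower were 2.73% and 5.16% in NSC-like cells, 1.53% and 4.26% in NPC-like cells, 1.43% and 2.21% in IMN1-like cells, 1.66% and 3.76% in IMN2-like cells, and 2.91% and 6.37% in AS-like cells. Among these classes only Uhrf1 in IMN2-like cells met it, on 30, 4 and 0 UMIs, or 7.10, 2.10 and 0 CPM. The 12w ratio was 0.296 (0.0757 to 0.839), and the main IMN2-like cluster held 6.99, 1.15 and 0 CPM on 21, 2 and 0 UMIs. At 24w, 3 UMIs over the pool would be 9.85 CPM, above the P5 level, so a fall at 24w was not detectable at that depth. This call was also lost when P5 cells of the same sex as the adult library were used.

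In NPC-like cells Uhrf1 was higher at 12w than at P5. The 3 levels in order of age were 77.1 CPM (736 UMIs), 109.5 CPM (94.4 to 126, 187 UMIs) and 91.5 CPM (61.7 to 131, 30 UMIs). Relative to P5 this was 1.42 at 12w (1.2 to 1.67) and 1.19 at 24w (0.795 to 1.71), so the second interval included the P5 level. Dnmt1 was 54.8, 70.3 (58.3 to 84.1) and 51.8 CPM (30.2 to 83.0), with a 12w ratio of 1.28 (1.04 to 1.57) and a 24w ratio of 0.946. The summed level of the S phase genes was 2759 CPM at P5 and 4318 and 4086 CPM in the adult libraries, and that of the G2/M genes was 6391, 5862 and 6233 CPM. Both members were thus higher at 12w along with the S phase genes, while at 24w Dnmt1 was near its P5 level. Within NPC-like cells in which S UMIs outweighed G2/M UMIs, Uhrf1 was 129, 146 and 128 CPM, and its 12w ratio was 1.13 (0.903 to 1.41). Among all cycling NPC-like cells it was 79.4 CPM at P5 and 122 CPM at 12w, with a ratio of 1.54 (1.30 to 1.81). In cells in which G2/M UMIs outweighed S UMIs it was 55.7 CPM at P5 and 88.1 CPM at 12w, a ratio of 1.58 (1.17 to 2.10). The intervals of the S and G2/M ratios overlapped, and the difference between them was not tested.

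In NSC-like cells Uhrf1 was lower in the adult libraries, at 9.26 CPM (53 UMIs), 2.48 CPM (0.511 to 7.24, 3 UMIs) and 3.25 CPM (1 UMI). The ratios to P5 were 0.268 (0.0535 to 0.825) at 12w and 0.351 (0.00872 to 2.04) at 24w, so the second interval took in the P5 level. Free RNA predicted from empty droplets made up 51.3% of the 12w level and 27.3% of the 24w level, against 1.18% and 1.06% in NPC-like cells. The P5 library lists selected barcodes only, so its free RNA could not be read. The share of cycling NSC-like cells moved in the same direction, from 7.8% at P5 to 2.43% at 12w. Among non-cycling NSC-like cells alone Uhrf1 was 6.44, 1.41 and 0 CPM, on 15, 1 and 0 UMIs, and the 12w ratio was 0.219 with an interval from 0.00519 to 1.42. Dnmt1 in NSC-like cells was 13.5 CPM (77 UMIs), 10.7 CPM (5.72 to 18.4) and 6.50 CPM (0.787 to 23.5, 2 UMIs), and its intervals at both adult ages took in the P5 level.

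Dnmt3a was lower in the adult than the P5 libraries in several neural classes, by less than 2-fold at 12w. In NSC-like cells the levels were 56.6 CPM, then 42.1 CPM (31.4 to 55.4, 51 UMIs) and 39.0 CPM (20.1 to 68.1, 12 UMIs), with ratios of 0.744 (0.542 to 1.0) and 0.688 (0.352 to 1.22). The 2 main NSC-like clusters differed, since the one led by Fos and Cyr61 held 65.6, 42.1 and 38.2 CPM and the one led by Gdf10 held 43.0, 45.8 and 44.5 CPM. AS-like cells had 77.0, 45.1 (32.3 to 61.5) and 51.0 CPM (27.9 to 85.5), with ratios of 0.586 (0.416 to 0.804) and 0.662 (0.361 to 1.12). In IMN2-like cells the levels were 25.3, 14.2 and 6.56 CPM on 107, 27 and 2 UMIs, with ratios of 0.559 (0.353 to 0.860) and 0.259 (0.0310 to 0.959). The clusters of this class were unequally filled, since the one led by Meg3 and Npy held 457 of 1160 cells at P5 and 57 of 517 at 12w. In the main IMN2-like cluster Dnmt3a was 19.0 CPM (14.4 to 24.6), 14.3 CPM (9.29 to 21.2) and 7.87 CPM (0.953 to 28.4), which overlapped. NPC-like cells had 27.4, 21.1 and 9.15 CPM, the last on 3 UMIs. IMN1-like cells had 11.6, 14.4 and 5.19 CPM and showed no such order. Pericyte-like cells were level, with ratios of 1.08 and 1.03, while smooth muscle-like cells had ratios of 0.546 (0.384 to 0.784) and 0.663 (0.450 to 0.982). Dnmt3b was sparse. NSC-like cells had 2.97, 7.43 and 6.50 CPM on 17, 9 and 2 UMIs. IMN2-like cells had 1.89 CPM (0.818 to 3.73), 6.82 CPM (3.63 to 11.7) and 6.56 CPM on 8, 13 and 2 UMIs. In both classes the P5 and 12w intervals overlapped, and the counts are under the 20 UMIs that a call asks for. No such order was seen in NPC-like (4.50, 3.51 and 6.10 CPM), IMN1-like (4.89, 3.59 and 0 CPM) or AS-like cells (2.02, 1.13 and 0 CPM).

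Among the Tet genes in NSC-like cells, only Tet2 stood above P5 at both adult ages by its point values. It was 12.4 CPM (71 UMIs), 19.0 CPM (12.0 to 28.5, 23 UMIs) and 52.0 CPM (29.7 to 84.4, 16 UMIs). The ratios were 1.53 (0.913 to 2.48) at 12w and 4.19 (2.27 to 7.28) at 24w, so the 12w interval included the P5 level and the 24w value rests on 16 UMIs of 83 cells. Free RNA was predicted to make up 6.21% and 4.03% of those adult levels. AS-like cells had the same order of point values, 23.1, 31.6 and 32.8 CPM, with ratios of 1.37 (0.894 to 2.02) and 1.42 (0.642 to 2.73) that took in the P5 level. The other classes had no such order, with NPC-like cells at 9.74, 6.44 and 9.15 CPM, IMN1-like cells at 15.6, 10.8 and 15.6 CPM, and IMN2-like cells at 8.29, 15.2 and 6.56 CPM.

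Tet1 in AS-like cells was 23.3 CPM (301 UMIs), 11.3 CPM (10 UMIs) and 0 CPM in order of age. The 12w ratio was 0.484 (0.230 to 0.902), and at 24w, with 3 UMIs taken as the limit, the level was at most 0.468 times that at P5. With 0.5 UMIs added to each pool, as the rule has it, the 12w log2 ratio was -0.98, just inside 2-fold, and Tet1 met the rule under 4 of the alternatives given in the closing section. In NSC-like cells Tet1 was 20.6, 14.0 and 16.2 CPM, and in NPC-like cells 13.7, 14.1 and 18.3 CPM. Tet3 was 25.0 CPM (239 UMIs), 14.6 CPM (25 UMIs) and 15.2 CPM (5 UMIs) in NPC-like cells, with ratios of 0.585 (0.371 to 0.885) and 0.609. In NSC-like cells it was 23.4, 18.2 and 32.5 CPM, with no common direction.

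**Figure D3:**
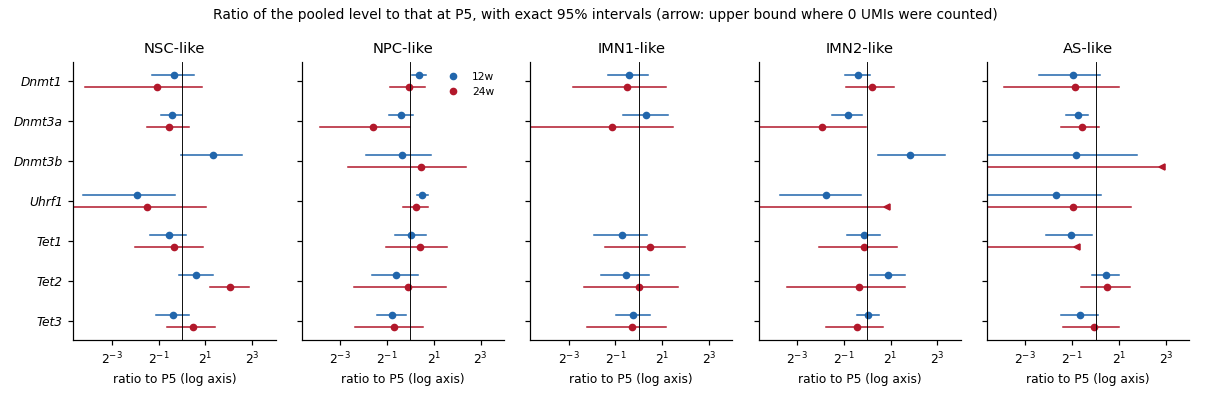
Ratio of the level at 12w and at 24w to that at P5 (x axis, log scale) for the 7 genes in the 5 neural classes, with exact conditional binomial 95% intervals as bars and an arrow where 0 UMIs give only an upper limit. Uhrf1 at 12w was 1.42 in NPC-like cells and 0.268 in NSC-like cells, and Tet2 at 24w was 4.19 in NSC-like cells.

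In pericyte-like cells Uhrf1 and Dnmt1 met the rule as lower, 2 of 6 members compared, where 11.2% of all genes were lower and 14.3% higher, and 0 members were higher. Uhrf1 was 25.5 CPM (20.1 to 32.0, 76 UMIs), 2.55 CPM (1.32 to 4.45) and 0.546 CPM (0.0661 to 1.97), ratios of 0.0998 (0.0494 to 0.185) and 0.0214 (0.00254 to 0.08). Dnmt1 was 32.6, 11 and 14.2 CPM, ratios of 0.339 (0.237 to 0.479) and 0.436 (0.305 to 0.616). The share of cycling pericyte-like cells fell with them, from 28.9% to 2.00% and 1.88%. Among non-cycling pericyte-like cells alone, Dnmt1 was 11.5, 11.2 and 13.1 CPM at the 3 ages, with ratios to P5 of 0.977 (0.465 to 2.24) and 1.14 (0.542 to 2.61). Uhrf1 in those cells was 12.6, 1.12 and 0.436 CPM, with ratios of 0.0888 (0.0159 to 0.336) and 0.0345 (0.000802 to 0.238), on 11, 3 and 1 UMIs. These Uhrf1 counts are under the 20 UMIs that a call asks for, and cells without list UMIs may still include cycling ones. The part of the cycling share in the lower adult levels of either gene was not tested. In smooth muscle-like cells Uhrf1 was 14.2, 4 and 1.87 CPM on 8, 8 and 2 UMIs, with ratios of 0.282 (0.0921 to 0.861) and 0.132 (0.0136 to 0.66), and the Dnmt1 ratios of 0.461 and 0.718 had intervals that took in the P5 level.

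Over the members together, the median log2 ratio to P5 at 12w and 24w was -0.34 and -0.21 in NSC-like cells, -0.26 and 0.12 in NPC-like cells, -0.41 and -0.13 in IMN1-like cells, -0.12 and -0.03 in IMN2-like cells, and -0.75 and -0.41 in AS-like cells. The medians of all genes compared ran from 0.02 to 0.15 at 12w and from 0.13 to 0.17 at 24w.

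Of 31 other genes of the pathway, none met the rule in NSC-like cells (29 compared) or IMN1-like cells (22 compared), 1 of 30 was higher in NPC-like cells (1.53% of all genes), 1 of 27 was higher and 1 lower in IMN2-like cells (1.66% and 3.76%), and 1 of 30 was lower in AS-like cells (6.37%). These counts are near the shares of all genes. The one in NPC-like cells was Gadd45g, of a family linked to DNA repair and demethylation, at 296, 721 and 653 CPM, ratios of 2.44 and 2.2. In IMN2-like cells Pcna, the sliding clamp of DNA replication, was higher, at 27.0, 77.2 and 108 CPM. Hells, a chromatin remodeller needed for methylation, met the rule there on 20, 2 and 0 UMIs, with a 12w ratio of 0.222 (0.0251 to 0.913). Cdca7, which works with Hells, met it in AS-like cells on 117, 2 and 0 UMIs, with a 12w ratio of 0.249 (0.0298 to 0.919). For both, 3 UMIs over the 24w pool would be above the P5 level, so a fall at 24w was not detectable.

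For open chromatin, peaks were called in each scATAC-seq library separately, over 7765, 11882 and 5496 nuclei. Of the 12 start sites of the 7 genes, 11 lay under a peak in each library, against 53.7% to 55.9% of all 32851 promoters. The exception in the 3 libraries was the Dnmt1 start at chr9:20959839-20960138, the window with 2 CpG sites shown above. The peak over the other Dnmt1 starts held 49.4, 31.1 and 29.5 counts per 1000000 in order of age, in peaks of 2305, 2346 and 2220 bases. The ratios to P5 were 0.631 and 0.597. For Tet1 the values were 21.8, 13.8 and 12.3 counts per 1000000 (0.630 and 0.564). Uhrf1 had 40.8, 26.4 and 28.1 counts per 1000000 (0.648 and 0.688), but its peak was called wider at P5 (3658 bases, then 2586 and 2280). Per kilobase of peak the Uhrf1 values were 11.1, 10.2 and 12.3, so a common fall with age was not seen by length. Dnmt3a kept 73.9, 70.4 and 70.0 counts per 1000000 (0.952 and 0.947), and Tet3 had 71.9, 77.2 and 84.1 (1.07 and 1.17). At the median promoter with a peak the ratio was 0.838 at 12w and 0.848 at 24w. Past 1.5-fold lower at both ages were 3 of the 11 starts, against 18.9% of all starts, and 0 were higher, against 8.68%. The 3 starts lie under 2 peaks, since both Dnmt1 starts share 1, and starts of Dnmt3a and of Uhrf1 share a peak too.

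These totals mix classes whose shares differed between the libraries. Nuclei were therefore also given the class of the most similar scRNA-seq cells, at a score of at least 0.5. The NPC-like nuclei are the least certain, since only 3, 5 and 3 of 9 markers were raised in them at the 3 ages. At P5 the Uhrf1 peak held 62.3 counts per 1000000 in NPC-like and 42.9 in NSC-like nuclei. The 12w values were 44.2 and 25.9, and the 24w values 41.1 and 26.7. NPC-like nuclei exceeded NSC-like nuclei 1.45-fold (1.32 to 1.6) at P5, 1.70-fold (1.49 to 1.96) at 12w and 1.54-fold (1.30 to 1.83) at 24w. At Dnmt1 the NPC-like and NSC-like nuclei were alike in value, at 51.7 and 50.1 in the P5 library, 37.0 and 36.3 in the 12w library, and 31.6 and 36.5 in the last. Within NSC-like nuclei Dnmt1 was thus lower in the adult libraries, as it was over all nuclei. Pericyte-like nuclei had 68.0, 23.3 and 27.2 counts per 1000000 at Uhrf1. As over all nuclei, the Uhrf1 values of each class come from a peak called wider at P5, so the ages are not compared like for like.

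Among the neural classes at P5, the peak over the first 2 Dnmt3a starts held 92.8 counts per 1000000 (88.1 to 97.7) in NSC-like nuclei. AS-like nuclei held 87.4 (84.2 to 90.5), followed by NPC-like (65.8), IMN2-like (57.8) and IMN1-like nuclei (48.1). NSC-like and AS-like nuclei overlapped, whereas the RNA was higher in AS-like cells. The peak over the third Dnmt3a start, chr12:3891494-3891793, had another order, with 24.8 counts per 1000000 in NPC-like nuclei, 18.7 for the IMN1-like class, 18.4 for NSC-like, 11.5 for AS-like and 11.2 for IMN2-like nuclei. In NSC-like nuclei the first of these peaks held 92.8, 87.5 and 88.7 at the 3 ages. The Tet1 peak held 31.6, 23.8 and 20.7 in NSC-like nuclei and 14.1, 15 and 16.2 in IMN2-like nuclei. Tet2 held 54.5, 51.9 and 50.1 in NSC-like nuclei, so its open chromatin did not share the higher 24w RNA value. Tet3 held 77.6, 81.2 and 83.0 there.

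**Figure D4:**
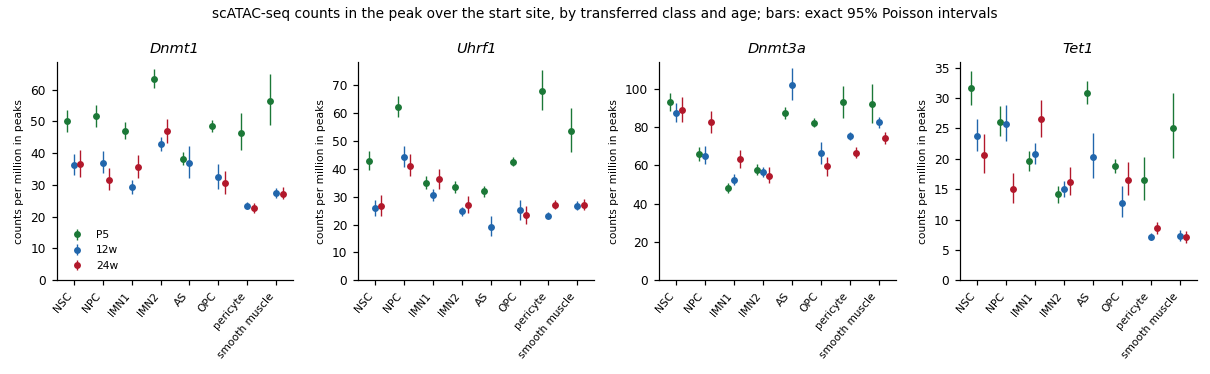
Counts per 1000000 (y axis) in the peak over the start of Dnmt1, Uhrf1, Dnmt3a and Tet1 by class of nuclei (x axis) at P5, 12w and 24w, for classes of at least 100 nuclei, with exact Poisson 95% intervals as bars. Uhrf1 in NPC-like nuclei stood at 62.3, 44.2 and 41.1, above NSC-like nuclei at each age.

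In cultured NSCs, transcripts per 1000000 (TPM) were deposited for 4 of the 6 RNA-seq libraries. The titles in GEO and the study's own listing of these values disagree. The listing, whose values equalled those of the libraries for 170 of 170 genes, gives the libraries titled Ctrl_3, Setd8KD_1 and Setd8KD_2 as controls and that titled Setd8KD_3 as knockdown. Setd8 itself was 154.2, 143.1 and 143.2 TPM in the first 3 and 36.4 TPM in the library titled Setd8KD_3. The listing was followed here, so the comparison is of 3 control libraries with 1 knockdown library. The lone library was assumed to vary like the others, and an exact permutation test of this design cannot give a p below 0.25. Nothing states that the controls came from separate cultures, so p-values measure the spread between these libraries.

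Dnmt1 and Uhrf1 were lower in the library titled Setd8KD_3. Dnmt1 was 79.2, 96.8 and 99.7 TPM in the control libraries and 54.3 TPM in that library. The control mean was 91.9 TPM ± 11.1 (SD, n = 3), and the log2 fold change on log2(TPM + 1) was -0.74 (SE 0.127, limma adjusted p = 0.00483). Uhrf1 was 74.5, 89.1 and 92.5 TPM, with a mean of 85.4 ± 9.54 (SD, n = 3), against 47.6 TPM. Its log2 fold change was -0.82 (SE 0.120, limma adjusted p = 0.00256). For both genes the knockdown library lay below the 3 controls, which did not overlap it, and the control titled Ctrl_3 was the lowest control. Tet1, at a far lower level per length, was 2.57, 2.45 and 2.26 TPM against 1.22 TPM, on 319, 313, 273 and 151 reads. It changed by -0.63 on the log2(TPM + 1) scale (SE 0.172, limma adjusted p = 0.0265), a ratio of 0.501 in TPM.

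The other 4 members did not pass. Dnmt3a was 21.9, 23.4 and 22.2 TPM against 24.4 TPM (log2 fold change 0.11, limma adjusted p = 0.310). Dnmt3b was 1.6, 0.941 and 1.16 TPM against 0.891 TPM (-0.23, limma adjusted p = 0.475). Tet2 was 3.95, 4.24 and 3.71 TPM against 4.43 TPM (0.13, limma adjusted p = 0.504), and Tet3 was 12.8, 13.4 and 13.1 TPM against 14.7 TPM (0.15, limma adjusted p = 0.222). With no filter on low values no member was called, and Tet1 was not called without the library titled Setd8KD_1 (limma adjusted p = 0.0576). Among all 12703 genes tested, 21.7% were called lower and 20% higher, beside 3 and 0 of the 7 members. None of the 7 was called higher by edgeR or DESeq2 either. At an unadjusted p under 0.05 none was higher by these 2 tools or by limma with the filter, and Tet3 was with no filter (limma unadjusted p = 0.0386, adjusted p = 0.158). The knockdown library lay outside the control range for the 7 members, below it for 4 and above it for 3, as it did for 40.8% and 41.3% of all genes.

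**Figure D5:**
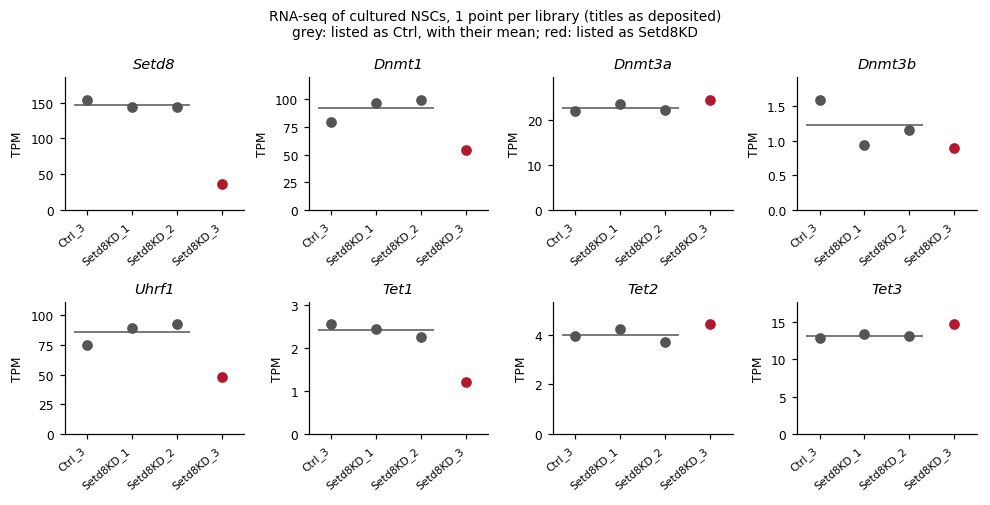
TPM (y axis, from 0) of Setd8 and the 7 genes in the 4 RNA-seq libraries of cultured NSCs, with the 3 libraries listed as control in grey and their mean as a line, and the library listed as knockdown in red. Dnmt1, Uhrf1 and Tet1 were lower in the knockdown library, at 54.3, 47.6 and 1.22 TPM.

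The cell cycle genes moved with this result. All 28 S phase genes were called lower, with a median log2 fold change of -0.93 and a summed level of 3262, 3464 and 3411 TPM in the controls and 1806 TPM in the library titled Setd8KD_3. All 28 G2/M genes were lower too, with a median of -1.03. The 9 NPC markers, most of them cycle genes, summed to 1145, 1150 and 1143 TPM against 497 TPM. AS markers summed to 4097, 4112 and 4298 TPM against 4618 TPM, OPC markers to 3924, 3737 and 3674 TPM against 3498 TPM, and IMN2 markers to 827, 794 and 824 TPM against 1004 TPM. Oligodendrocyte markers summed to 83.8, 87.5 and 88.5 TPM against 117 TPM, interneuron markers to 12.4, 13.4 and 12.6 TPM against 23.4 TPM, and pericyte markers to 1.25 to 2.40 TPM over the 4 libraries. In bulk RNA, fewer cells of a kind and less RNA per cell cannot be told apart, and the part of the cycle genes in the fall of Dnmt1 and Uhrf1 was not tested.

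Most partners of maintenance methylation fell too, where 21.7% of all genes were called lower. Of 6 tested, 5 passed the test, with a median log2 fold change over the list of -0.85 beside 0.00 over all genes. They were Hells (-1.08, limma adjusted p = 0.000328), Cdca7 (-0.96), Lig1 (-0.86), Pcna (-0.84) and Usp7, a deubiquitinase that binds Dnmt1 and Uhrf1 (-0.29, limma adjusted p = 0.0148). Uhrf2, the paralog of Uhrf1, had -0.01. Of 8 readers of methylated CpG, Mbd3 (-0.51) and Zbtb33 (-0.66) fell and Zbtb4 (0.63) rose, a count near the shares of all genes called lower (21.7%) and higher (20%). Of 9 genes for the removal of oxidised bases and for base excision repair, Lig3 (-0.77), Apex1 (-0.54), Parp1 (-0.54) and Xrcc1 (-0.38) fell. Gadd45a (1.2, limma adjusted p = 0.000193) and Gadd45b (1.08, limma adjusted p = 0.000355), stress-induced members of that list, rose. Gadd45a was 40.4, 40.3 and 37.0 TPM in the controls and 91.4 TPM in the library titled Setd8KD_3. Ogt, a sugar transferase that binds Tet proteins, fell by 0.25 on the log2 scale, and none of 4 genes of methyl donor supply passed. Cxxc4 was under the filter on low values, and Dnmt3l, the partner of the de novo enzymes, had no reads.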

How the data were processed

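The deposited scRNA-seq values are raw UMI counts, which the authors obtained with Cell Ranger 2.2.0 on mm10. A barcode was kept as a cell if it had 1000 or more UMIs, 500 or more genes and no more than 10% mitochondrial UMIs, and doublets (932, 80 and 3 cells at P5, 12w and 24w) were removed with scrublet in scanpy 1.11.5. The 3 calls at 24w are few for such a library, so doublets may remain there. The libraries were integrated and clustered with Seurat 5.3.0 (2000 variable genes, 30 dimensions, resolution 0.8). The members, 31 pathway genes and Setd8 were left out of that step. A cluster took the class with the highest marker score, if it was at least 0.5 with at least 3 markers raised, and 2243 of 20817 cells stayed unnamed. Naming in the second round was limited to the neural classes and OPC after the clusters had been seen.

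Levels are pooled UMIs as CPM with exact Poisson intervals, and ratios have exact conditional binomial intervals at 95%. These intervals hold counting error alone and say nothing of the spread between mice. The 2-fold rule was tested on simulated NPC-like pools of 2675 genes, where it recovered 97% of 3-fold and 0% of 1.5-fold changes with 0 false calls. The last change is below the cut of the rule, and 11554 genes were compared in the real NPC-like pools. How well the rule finds a change in members with few UMIs at 24w was not tested. Free RNA was read from barcodes of 10 to 100 UMIs, scaled by 15 vascular markers.

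The deposited scATAC-seq values are raw counts in peaks, from the authors' run of Cell Ranger ATAC against mm10, and totalled 256859756, 315005811 and 201338852. Nuclei with at least 5000 counts were used, doublets were not called, and class labels were transferred in Seurat. RefSeq start sites are on GRCm38.p6, the build of the peaks.

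The deposited RNA-seq values are TPM, made by the authors after alignment with STAR to mm10, in 4 of 6 files. The other 2 hold gene names and lengths in the same row order. Genes with a mean of at least 1 TPM (12703) were tested with limma 3.58.1 on log2(TPM + 1), two-sided, with Benjamini-Hochberg adjustment. On simulated data, limma recovered 96% of 2-fold and 60% of 1.5-fold changes, with 18 false calls over 12655 genes. Whole reads came back from TPM and lengths for 97.8% to 99.2% of values (within 0.02 reads or a fraction of 1e-05), 20040076 to 21493347 reads per library, and were used for edgeR 4.0.16 and DESeq2 1.42.0 as alternatives. The 7 genes and all lists were chosen with earlier results of these data known. The genes named are the 7, Setd8, the pathway genes called in the knockdown comparison or past 2-fold between ages, the 3 genes most like each member, and cell type markers. Gene names came from the files. The bulk ATAC-seq and H4K20me1 samples were not analysed here.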

Additional observations from a re-analysis of the deposited data

Results flagged for a closer look

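The point values of the ratio of Uhrf1 to its P5 level lay on opposite sides of 1 between classes, which is what drew attention to it. At 12w it was 0.268 in NSC-like cells, 0.296 in IMN2-like cells and 1.42 in NPC-like cells, and the 3 intervals did not take in the P5 level. At 24w the ratios of 0.351 in NSC-like and 1.19 in NPC-like cells had intervals that did. IMN2-like cells then held 0 UMIs, which allows a ratio of up to 1.39, so the 24w values show no direction. With 1 library per age these differences between classes were not tested, and the low values rest on 3, 1, 4 and 0 UMIs.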

How the results depend on the processing

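In the knockdown comparison, 3 members were lower with a pseudocount of 0.1, with centring by the median and with edgeR and DESeq2 on recovered reads. With no filter on low values the count was 0 (adjusted p 0.146 for Dnmt1, 0.112 for Uhrf1 and 0.0725 for Tet1), and over all genes 1196 were then called higher and 1038 lower of 24062, in place of 2545 and 2755. Grouped by the GEO titles, 1 library against 3, the count was also 0, no gene was called (67 higher and 19 lower at an unadjusted p under 0.05), and the Dnmt1 log2 fold change was 0.026. Leaving out 1 control gave counts from 2 to 3. Tet1 was lost without the library titled Setd8KD_1 (adjusted p = 0.0576), and Dnmt3b was not tested without that titled Ctrl_3.

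Between ages, 1 member (Uhrf1) was lower in NSC-like cells at 1.5-fold, with free RNA subtracted and with scaling by the median gene. Free RNA could be subtracted from the adult pools only, since it could not be read at P5. That setting was therefore bound to lower the Uhrf1 ratios and is no independent check. In IMN2-like cells 2 were lower at 1.5-fold (Dnmt3a and Uhrf1) and 0 with P5 cells of like sex. In AS-like cells 1 was lower at 1.5-fold, with median scaling, with cells of at least 2000 UMIs and with doublets kept (Tet1), and at resolution 1.2 (Uhrf1). At that resolution an S phase cluster of NPC-like cells was unnamed. All 448 values of 64 single-cell ratios under 7 alternatives stayed within their intervals. The alternatives share cells with the main values and many of the intervals are wide, so this is a weak check.

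Between cycling states, 2 or more list UMIs gave 1 higher member in NSC-like cells (Uhrf1) and 0 lower in IMN1-like and pericyte-like cells. With P5 cells only the lower counts in those last classes were also 0. There Tet2 in pericyte-like cells (ratio 0.353) and Tet1 in IMN1-like cells (0.344) were still past 2-fold but held under the 20 UMIs asked for, and Dnmt3a in IMN1-like cells was at 0.497. Dnmt1 in NPC-like cells was not called with P5 cells only (1.97). With 5 or more, Tet1 was 1 lower member in OPC-like cells, and AS-like, NSC-like and IMN1-like cells were too few to run.

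No paired analysis was possible because the groups of the knockdown comparison share 1 replicate number (3), under the GEO titles and under the study's own listing alike, and each age has 1 library. Depth limits the 24w pools most in the neural classes.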

Other observations

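A cluster of 43 cells, all from P5, took no class name. It was led by Dtl, Pla2g3, Dna2, Fam111a and Ccne2, several of them genes of DNA replication. Its Uhrf1 level was 96.0 CPM (62.1 to 142, 25 UMIs), its Dnmt1 level 65.3 CPM (38.0 to 105, 17 UMIs) and its Dnmt3a level 88.3 CPM (56.0 to 133, 23 UMIs). The first 2 overlapped NPC-like cells at P5, and Dnmt3a overlapped AS-like cells and lay above NPC-like cells. Since the cluster was defined on the genes of the same cells, these are descriptions. Tet3, Tet2 and Tet1 stood at 30.7, 19.2 and 15.4 CPM in it.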
